A study of Mus musculus with 16 samples.

Results

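NRF2, encoded by Nfe2l2, is the transcription factor that switches on antioxidant and detoxifying genes. The levels of Nfe2l2, its inhibitor Keap1 and 8 genes linked to them were followed through LPS and dexamethasone (Dex) treatment of mouse macrophages. The 10 genes were taken by symbol from a list that was chosen with earlier results of these data known. All 10 were found among the 9614 genes of the deposited expression table. The series holds 16 RNA-seq libraries of macrophages grown from bone marrow (BMDM) of male C57BL/6 mice aged 8 weeks. The WT mice (3) were LysM-Cre:NELF-B wt/wt, and the NELF-B KO mice (3) were LysM-Cre:NELF-B fl/fl. The deleted gene, Nelfb, encodes a subunit of the complex that holds RNA polymerase II paused near promoters. Mice of both genotypes carry LysM-Cre, which is driven in myeloid cells. The deletion is therefore limited to that lineage and to the cells in which Cre has acted. BMDM were left untreated (2 libraries per genotype), or were given 10 ng/ml LPS for 1 hr, alone (3 per genotype) or together with 100 nM Dex (3 per genotype). LPS is a bacterial cell wall component that sets off inflammatory transcription, and Dex is a synthetic ligand of the glucocorticoid receptor. The labels number the mice, and within each genotype they are given the letters A, B and C here. No untreated library came from mouse C of either genotype. Where values of all libraries of a group are given, their order is B, A for untreated cells, and B, C, A (WT) or B, A, C (NELF-B KO) for treated cells.

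In resting cells KEAP1 hands newly made NRF2 to a ubiquitin ligase for destruction. Electrophiles and oxidants block KEAP1, and the selective autophagy receptor p62, the product of Sqstm1, can pull KEAP1 away, so that NRF2 accumulates, pairs with a small MAF protein and binds antioxidant response elements (ARE). Its protein level is therefore largely set after transcription, and the values here are of mRNA only. In macrophages the pathway is known for limiting oxidative damage and inflammatory gene expression, and several of its targets also respond to NF-kB or AP-1.

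Short stretches of the promoters are shown because they hold the letters by which NRF2 targets are usually recognised. RefSeq promoters (assembly GRCm38.p6, the build of the mm10 reference used by the authors) were found for 8 of the 10 genes, all except Hmox1 and Gclc, and the 250 bases before each start were searched on both strands. The ARE core TGACNNNGC was present in the promoters of Nfe2l2, Gclm and Prdx1 and in 1 of 3 promoters of Txnrd1, against 10.2% of all 32851 promoters. Each window is written in the direction of its gene, with the match in capitals.
Nfe2l2, chr2:75704885-75704913, minus strand: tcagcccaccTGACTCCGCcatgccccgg
Gclm, chr3:122245413-122245441, plus strand: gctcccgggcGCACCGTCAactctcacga
Txnrd1, chr10:82859104-82859132, plus strand: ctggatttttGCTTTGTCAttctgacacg
Prdx1, chr4:116685456-116685484, plus strand: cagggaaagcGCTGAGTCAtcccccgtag
The Gclm, Txnrd1 and Prdx1 matches read in the reverse direction, and the Prdx1 match overlaps a match to the AP-1 motif TGANTCA. AP-1 matches were also found in the promoter of Srxn1, at 2 places, against 6.75% of all promoters. The Srxn1 match that is followed by GC differs from the searched ARE core only by a G in place of C. A looser ARE core was not searched.
Srxn1, chr2:152105412-152105438, plus strand: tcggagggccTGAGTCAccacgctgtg
Srxn1, chr2:152105469-152105495, plus strand: aaattcacccTGAGTCAgcggccgggc
A loose NF-kB pattern, GGGNNNNNCC, was found in promoters of 7 of the 8 genes, all except Nfe2l2, but also in 45.8% of all promoters. These matches describe the letters of the window and say nothing about binding, and a gene without a match may hold one outside it.

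The libraries held 25030445 to 49728796 reads on the measured genes, and every one of the 10 genes was far above the level of 3 reads, which was 0.0653 to 0.136 CPM. Nelfb, the targeted gene, was at 5.59 to 6.21 log2 CPM in the WT libraries and 3.27 to 4.38 in the NELF-B KO libraries. The untreated library of WT mouse A stood apart, with r across genes of 0.83 to 0.909 with the other libraries against 0.924 to 0.993 among the other 15. Of 7 macrophage markers listed, 6 were in the table, without Adgre1, and summed to 5538 to 7312 CPM. Erythroid markers were not in the table (0 of 6), and the 1 neutrophil marker of 9 (S100a8), 1 T and NK cell marker of 6 (Cd4) and 1 B cell marker of 4 (Cd79b) stayed at 5.44 to 41.5, 5.14 to 59.2 and 13.4 to 39.7 CPM. The single dendritic cell marker of 4, Ccr7, was at 0.432 to 10.03 CPM, and 4 of 5 stromal markers summed to 49.1 to 145 CPM. In bulk RNA a change in the number of expressing cells and a change in RNA per cell cannot be told apart.

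Differences were tested on the deposited log2 CPM with limma, whose estimate of the replicate spread is shared across genes, and a gene was called at an adjusted p under 0.05 (Benjamini-Hochberg over all 9614 genes). Levels of different genes were compared only after division by the exon length of the gene, as log2 CPM per kb. On that scale Prdx1, a peroxiredoxin that removes hydrogen peroxide, was highest in untreated WT cells (10.17), followed by Hmox1, the heme-degrading oxygenase (9.80), and Sqstm1 (7.99). Srxn1, which restores over-oxidised peroxiredoxins, was at 6.90, Nfe2l2 at 6.32 and Txnrd1, the cytosolic thioredoxin reductase, at 5.55 log2 CPM per kb. The subunits of the enzyme that makes the glutathione precursor, Gclm (modifier) and Gclc (catalytic), were at 4.82 and 3.39, with mitochondrial superoxide dismutase, Sod2, between them at 4.68 and Keap1 lowest at 3.10. Neighbours differed by less than the larger replicate SD for Prdx1 and Hmox1, Srxn1 and Nfe2l2, Gclm and Sod2, and Gclc and Keap1, with SDs of Sod2 and Gclc of 0.42 and 0.44 (n = 2). In LPS-treated WT cells Nfe2l2 (7.23) stood above Srxn1 (7.11) and Sod2 (5.65) above Gclm (5.14), the former by less than the replicate SD of Srxn1, and the other ranks were those of untreated WT cells.

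LPS for 1 hr raised Nfe2l2, Sod2 and Txnrd1 in WT BMDM, and Nfe2l2, Sod2 and Sqstm1 in NELF-B KO BMDM, by 1.76-fold to 2.07-fold. Hmox1, Prdx1 and Gclm, well known NRF2 targets, and Keap1 did not pass the test in either genotype. The 3 called genes of 10 in the WT stand beside 6.91% of all genes called in either direction and 4.63% called higher. In the NELF-B KO 3 of 10 were called, beside 4.01% of all genes in either direction and 2.92% higher. Over the 10 genes the median log2 fold change was 0.38 in the WT and 0.28 in the NELF-B KO, against 0.016 and -0.0052 over all genes. Because the genes were chosen with earlier results of these data known, these shares and medians are descriptions and do not test the set. For LPS, the shares of all genes without overlap of the groups, or with the same direction in every mouse, were not counted. Such patterns given below for single genes therefore have no background beside them. Some markers of other cell types moved with LPS without overlap. In the WT Cd79b was at 31.8 and 36.5 CPM untreated and 13.9 to 27.0 CPM with LPS. In the NELF-B KO the stromal sum was 80.9 and 89.6 CPM untreated and 99.6 to 125 CPM with LPS. Both ranges overlapped in the other genotype, and their part in the LPS changes was not tested.

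**Figure D1:**
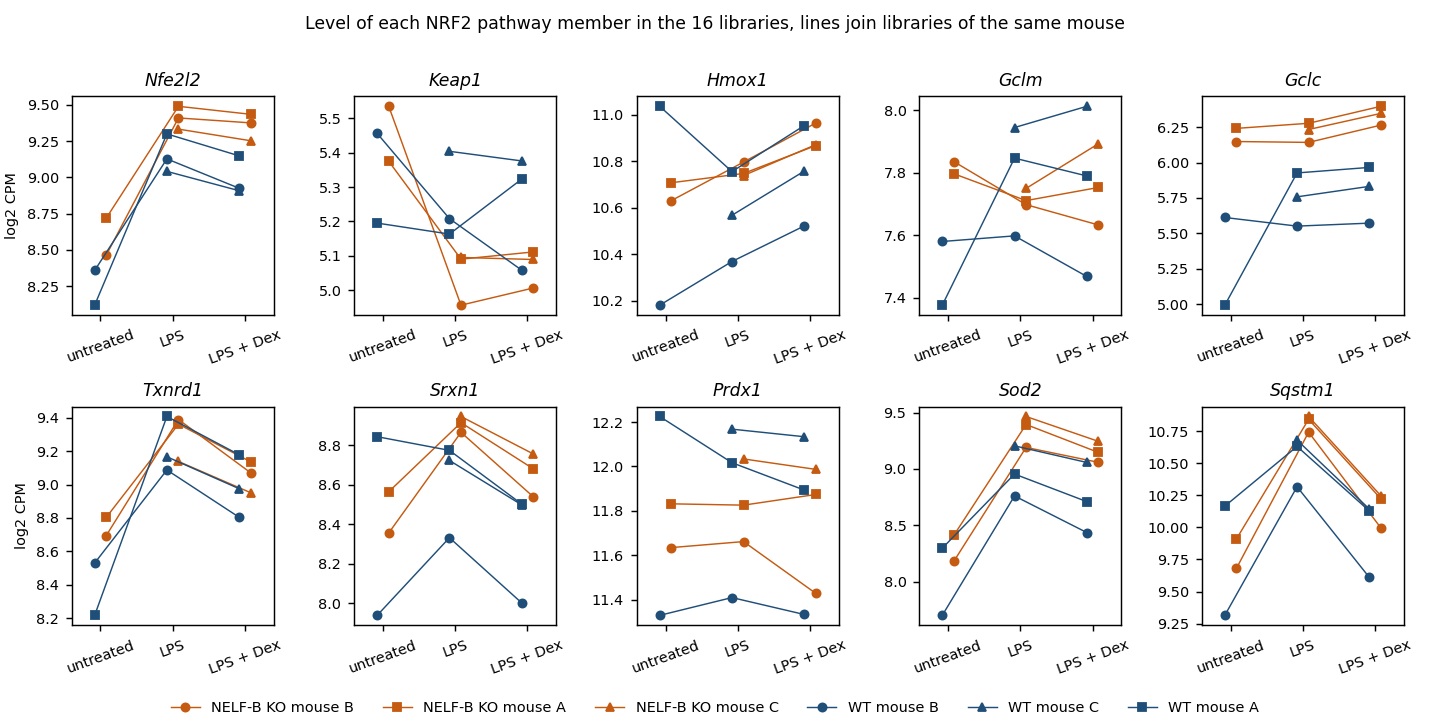
Level of each of the 10 genes (log2 CPM, vertical axis, a separate scale for each gene) in untreated, LPS and LPS + Dex BMDM, with 1 point per library and lines joining libraries of the same WT (blue) or NELF-B KO (orange) mouse. Nfe2l2, Sod2, Txnrd1 and Sqstm1 rise from untreated to LPS in each of the 4 mice with both libraries, and Sqstm1 falls with Dex in each of the 6 mice.

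Nfe2l2 (chr2:75675513-75704641, minus strand) was at 8.36 and 8.12 log2 CPM in the untreated WT libraries and at 9.13, 9.04 and 9.30 with LPS. In the NELF-B KO it was at 8.46 and 8.72 untreated and at 9.41, 9.49 and 9.33 with LPS. In both genotypes every LPS library lay above every untreated library. The log2 fold change was 0.92 in the WT (standard error 0.13, limma adjusted p = 0.000578) and 0.82 in the NELF-B KO (standard error 0.13, limma adjusted p = 0.00159). Within mice the change was 0.77 to 1.18 on the log2 scale in 4 of 4 mice. Without the untreated library of NELF-B KO mouse B the NELF-B KO value was 0.69 and just missed the threshold (limma adjusted p = 0.05003).

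Keap1, the inhibitor, was at 5.46 and 5.20 log2 CPM in untreated WT cells and 5.21, 5.40 and 5.16 with LPS, which overlapped. In NELF-B KO cells it was at 5.54 and 5.38 untreated and at 4.96, 5.09 and 5.10 with LPS, and these did not overlap. Its log2 fold change was -0.41 in the NELF-B KO (standard error 0.13, limma adjusted p = 0.136) and -0.07 in the WT (standard error 0.13, limma adjusted p = 0.737). Keap1 was lower with LPS in 4 of 4 mice, by 0.03 to 0.58 log2 CPM, without passing the test. The share of all genes lower in every mouse was not counted. Exons of Keap1 share 510 bases with an antisense gene, and reads of such a pair cannot be told apart unless strand was used in the counting, which is not given in the sources used here.

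Sod2 (chr17:13006846-13040063, plus strand), which converts superoxide in mitochondria and is a classical NF-kB target, was at 7.70 and 8.30 log2 CPM in untreated WT cells and at 8.76, 9.20 and 8.96 with LPS. In the NELF-B KO the untreated libraries held 8.18 and 8.41 and the LPS libraries 9.19, 9.39 and 9.46. The groups did not overlap in either genotype. Sod2 rose by 0.97 log2 in the WT (standard error 0.21, limma adjusted p = 0.0112) and by 1.05 in the NELF-B KO (standard error 0.21, limma adjusted p = 0.00766). The WT call was lost without the LPS library of mouse C (0.86, limma adjusted p = 0.05004), and the NELF-B KO call without the untreated library of mouse B (0.94, limma adjusted p = 0.133).

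Txnrd1 (chr10:82833951-82897712, plus strand) was at 8.53 and 8.22 log2 CPM in untreated WT cells and at 9.09, 9.17 and 9.41 with LPS. In NELF-B KO cells it was at 8.69 and 8.80 untreated and at 9.39, 9.36 and 9.14 with LPS. Every LPS library of either genotype lay above the untreated ones. The increase was 0.85 log2 in the WT (standard error 0.15, limma adjusted p = 0.00291), and the NELF-B KO value of 0.55 missed the threshold (standard error 0.15, limma adjusted p = 0.0657). When each mouse was a replicate block the NELF-B KO value was 0.61 and passed (limma adjusted p = 0.0328).

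Sqstm1 (chr11:50199366-50210827, minus strand) was at 9.31 and 10.16 log2 CPM in untreated WT cells, where the higher value belongs to mouse A, and at 10.32, 10.68 and 10.63 with LPS. In NELF-B KO cells it was at 9.68 and 9.91 untreated and at 10.74, 10.84 and 10.86 with LPS. LPS libraries lay above untreated ones in both genotypes, although untreated WT mice B and A lay far apart. The log2 fold change was 1.02 in the NELF-B KO (standard error 0.23, limma adjusted p = 0.0198) and 0.80 in the WT (standard error 0.23, limma adjusted p = 0.0551). With the replicate block the WT value was 0.72 and passed (limma adjusted p = 0.00352), and without the untreated library of mouse A it was 1.23 (limma adjusted p = 0.0047). Without the untreated library of mouse B it was 0.38 (limma adjusted p = 0.152). The NELF-B KO call was lost without any of the libraries that entered it, with values of 0.91 to 1.14 and limma adjusted p-values of 0.0504 to 0.264. Exons of Sqstm1 share 580 bases with Mrnip, a protein-coding gene on the opposite strand.

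The replicate block takes account of libraries coming from the same mouse, and with it 4 genes were called in each genotype, Nfe2l2, Txnrd1, Sod2 and Sqstm1, beside 13.8% of all genes in the WT and 7.32% in the NELF-B KO. When the change was averaged over genotypes with this block (a fit added once the data had been seen), Srxn1 was called as well, beside 17.3% of all genes. Its log2 fold change was 0.28 (standard error 0.08, limma adjusted p = 0.0342), and it was higher with LPS in 3 of 4 mice and lower by 0.07 in WT mouse A. With only the 5 WT libraries compared in the fit, in place of all 16, none of the 10 genes was called in the WT, with limma adjusted p-values of 0.174 for Nfe2l2, 0.268 for Txnrd1 and 0.317 for Sod2.

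Among the genes that did not pass, Hmox1 (chr8:75093621-75100589, plus strand) was at 10.18 and 11.04 log2 CPM in untreated WT cells and 10.37 to 10.76 with LPS, a log2 change of -0.04 on average (limma adjusted p = 0.898). In NELF-B KO cells it was at 10.63 and 10.71 untreated and 10.74 to 10.80 with LPS, 0.09 higher (standard error 0.21, limma adjusted p = 1). Prdx1 differed by 0.09 in the WT and 0.11 in the NELF-B KO, with standard errors of 0.31. Its untreated WT libraries held 11.33 and 12.22 log2 CPM. Over the 3 conditions WT mouse B stayed at 11.33 to 11.41 and WT mouse A ran from 11.89 to 12.22, while NELF-B KO mice B and A ran from 11.43 to 11.66 and from 11.83 to 11.87.

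The WT value of Gclc turned on the untreated libraries. Gclc (chr9:77754535-77794485, plus strand) was at 5.61 and 4.99 log2 CPM in untreated WT cells (mice B and A) and at 5.55, 5.76 and 5.93 with LPS, so that it was lower by 0.06 in mouse B and higher by 0.94 in mouse A. In the NELF-B KO it was 6.15 and 6.24 untreated and 6.14, 6.28 and 6.23 with LPS. The WT difference of 0.44 log2 (standard error 0.17, limma adjusted p = 0.132) became 0.75 and was called without the untreated library of mouse B (limma adjusted p = 0.00169), and became 0.13 without that of mouse A (limma adjusted p = 0.769). Leaving out mouse B leaves the library that stands apart as the only untreated WT library, and Hmox1 was then lower with LPS by 0.47 log2. Without the untreated library of mouse A Hmox1 was higher by 0.38 log2, so its direction depended on which untreated library was left out. Gclm was at 7.58 and 7.38 untreated and 7.60, 7.94 and 7.85 with LPS in the WT, which is 0.32 higher on average (limma adjusted p = 0.197). Exons of Gclm share 244 bases with a pseudogene on its strand and 296 bases with a transcript on the other strand.

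**Figure D2:**
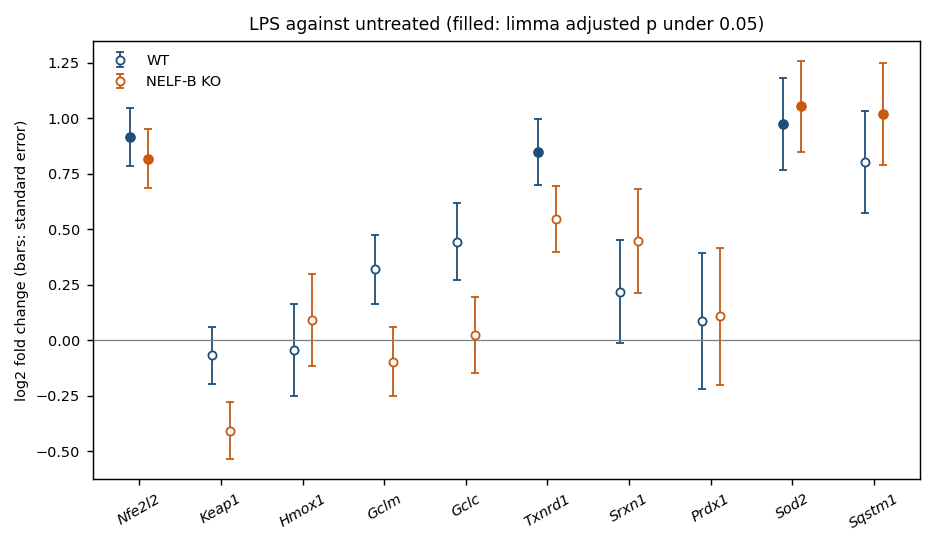
Log2 fold change of LPS-treated against untreated BMDM (vertical axis) for the 10 genes in the WT (blue) and NELF-B KO (orange), with bars for the standard error and filled points for genes called by limma. Filled points lie between 0.82 and 1.05, and Hmox1 and Prdx1 lie within their error of 0 in both genotypes.

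The LPS change was then compared between the genotypes as an interaction in the same fit. None of the 10 genes was called, and 0 of them had an unadjusted p under 0.05, where 2.3% of all genes did and 0% were called. The differences ranged from -0.42 for Gclc (95% interval -0.95 to 0.11, limma adjusted p = 0.69) to 0.23 for Srxn1 (95% interval -0.48 to 0.94, limma adjusted p = 0.775). For Nfe2l2 the difference was -0.10, with a 95% interval of -0.50 to 0.30 on the log2 scale. Without the untreated library of WT mouse B the difference for Gclc was -0.73 and was called (limma adjusted p = 0.0136), resting on the untreated library of WT mouse A that stands apart. Without the library of mouse A it was -0.11 (limma adjusted p = 1).

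Adding Dex to LPS lowered Sqstm1 once libraries of the same mouse were paired, and gave smaller shifts of the other genes that did not pass the test. In LPS-treated WT cells Sqstm1 was at 10.32, 10.68 and 10.63 log2 CPM in mice B, C and A, and at 9.61, 10.14 and 10.13 with LPS + Dex. In NELF-B KO mice B, A and C it went from 10.74, 10.84 and 10.86 to 10.00, 10.22 and 10.25. Every LPS + Dex library was below every LPS library of its genotype, and the within-mouse change was -0.50 to -0.75 in 6 of 6 mice. The share of all genes whose LPS and LPS + Dex groups did not overlap was not counted. Without the block the log2 fold change was -0.58 in the WT (standard error 0.20, limma adjusted p = 0.657) and -0.66 in the NELF-B KO (standard error 0.20, limma adjusted p = 0.347). With the block the same changes had limma adjusted p-values of 0.014 and 0.00713.

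Without the block none of the 10 genes was called for Dex by limma, beside 0.749% of all genes in the WT and 0.895% in the NELF-B KO. At an unadjusted p under 0.05 Sqstm1 alone passed among the 10 in each genotype, beside 3.45% and 3.87% of all genes. With the block Sqstm1 was the single gene called in each genotype, beside 2.19% and 2.57% of all genes, and likewise when averaged over genotypes (-0.62, standard error 0.07, limma adjusted p = 0.000763), beside 4.85%.

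**Figure D3:**
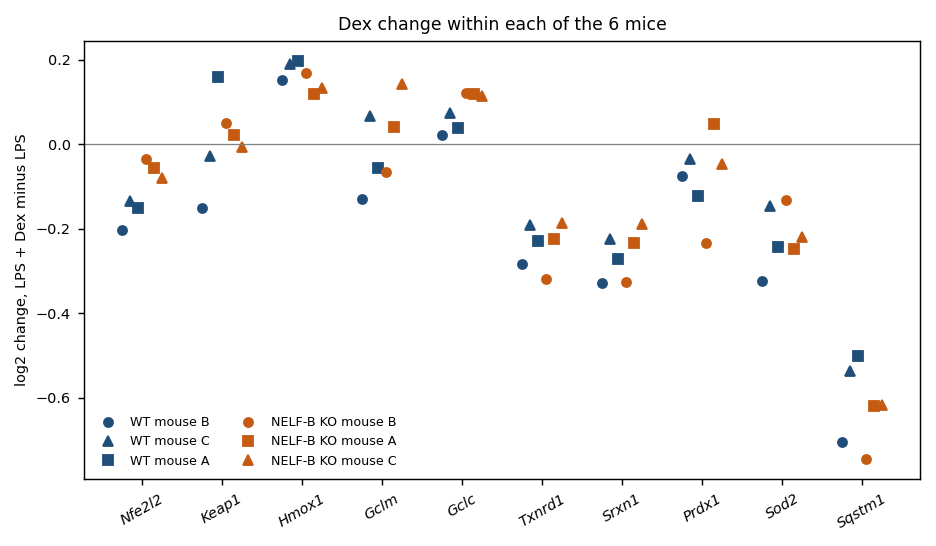
Within-mouse change from LPS to LPS + Dex (log2, vertical axis) of the 10 genes, with 1 point for each of the 3 WT (blue) and 3 NELF-B KO (orange) mice. Sqstm1 lies lowest, between -0.75 and -0.50, and Hmox1 and Gclc lie above 0 in all 6 mice.

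By mouse, Dex went with a lower level of 5 of the 10 genes in each of 6 mice, which held for 10.4% of all genes. These were Nfe2l2 (by 0.03 to 0.20 on the log2 scale), Txnrd1 (by 0.19 to 0.32), Srxn1 (by 0.19 to 0.33), Sod2 (by 0.13 to 0.32) and Sqstm1. They are the 5 genes called for LPS in the averaged fit, and both changes use the same LPS libraries. In the averaged fit with the block, the log2 fold changes with Dex were -0.26 for Srxn1 (standard error 0.06, limma adjusted p = 0.0593), -0.24 for Txnrd1 (standard error 0.09, limma adjusted p = 0.261) and -0.22 for Sod2 (standard error 0.06, limma adjusted p = 0.0896).

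Hmox1 and Gclc were higher with Dex in each of 6 mice, as 9.16% of all genes were. For Hmox1 the change was 0.12 to 0.20 log2, from 10.37, 10.57 and 10.76 to 10.52, 10.76 and 10.95 in the WT and from 10.80, 10.75 and 10.74 to 10.96, 10.87 and 10.87 in the NELF-B KO. The WT groups overlapped, and the NELF-B KO groups did not, a pattern whose share of all genes was not counted. The averaged log2 fold change was 0.16 (standard error 0.06, limma adjusted p = 0.383). For Gclc the within-mouse change was 0.02 to 0.12. Keap1 and Gclm were higher in 3 mice and lower in 3, and Prdx1 was lower in 5 of 6. Over the 10 genes the median Dex change was -0.12 in the WT and -0.07 in the NELF-B KO, against -0.0070 and -0.0023 over all genes.

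The Dex change did not pass a test of difference between genotypes for any of the 10 genes. Without the block, limma called 0% of all genes for this difference, and 0% of all genes had an unadjusted p under 0.05. That fit keeps differences between mice in its spread, though LPS and LPS + Dex libraries of a mouse deviated alike (r over genes 0.781 to 0.939). It could hardly pass any gene, so it does not decide whether the Dex change differs. The differences lay between -0.08 for Sqstm1 (95% interval -0.71 to 0.55) and 0.11 for Nfe2l2 (95% interval -0.25 to 0.47). With the replicate block, in which Sqstm1 was called for Dex, the Sqstm1 difference was also -0.08, with a narrower 95% interval of -0.38 to 0.22.

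Deletion of NELF-B went with higher Gclc in each of the 3 conditions, but no gene of the 10 passed the test. Gclc was at 5.61 and 4.99 log2 CPM in untreated WT and 6.15 and 6.24 in untreated NELF-B KO cells, and its LPS values are given above. With LPS + Dex it was at 5.57, 5.83 and 5.97 in the WT and 6.26, 6.40 and 6.35 in the NELF-B KO. Every NELF-B KO library was above every WT library of the same treatment. The log2 difference was 0.89 untreated (standard error 0.19, limma adjusted p = 0.324). It was 0.47 for LPS (limma adjusted p = 0.309) and 0.55 for LPS + Dex (limma adjusted p = 0.176), both with a standard error of 0.15. In the labels, 1 library of WT mouse B prints the same date as the libraries of NELF-B KO mouse B, and mice C carry sample numbers of one style. Mice A make up the remaining pair, with a date printed for the NELF-B KO mouse only, so the labels do not state these pairs as batches. Within pairs of the same letter the Gclc difference was 0.35 to 1.25, above 0 in each of the 3 pairs and each treatment measured. Treatments of the same pair are not separate replicates. The value of 1.25 came from untreated mice A, whose WT library stands apart.

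Nfe2l2 was also higher in every NELF-B KO library than in every WT library of the same treatment. With LPS + Dex it was at 8.93, 8.91 and 9.15 in the WT and 9.38, 9.43 and 9.25 in the NELF-B KO. The log2 difference was 0.35 untreated, 0.25 with LPS and 0.36 with LPS + Dex, with standard errors of 0.14, 0.12 and 0.12 and limma adjusted p-values of 0.324, 0.722 and 0.284. Within the mouse pairs it was 0.11 to 0.60 untreated, 0.19 to 0.29 with LPS and 0.29 to 0.45 with LPS + Dex.

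**Figure D4:**
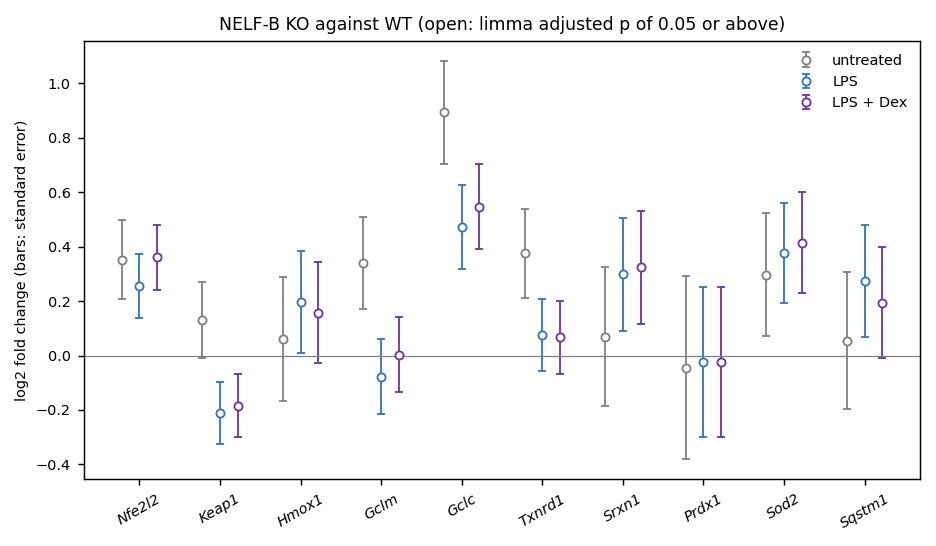
Log2 difference between NELF-B KO and WT BMDM (vertical axis) for the 10 genes in untreated (grey), LPS (blue) and LPS + Dex (purple) cells, with bars for the standard error. Gclc lies highest in each condition, at 0.89, 0.47 and 0.55, and Prdx1 lies near 0 in all 3.

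In untreated cells 4 of the 10 genes, Nfe2l2, Gclc, Gclm and Txnrd1, had both NELF-B KO libraries above both WT libraries, as 15.7% of all genes did, and none had them below, as 13.8% of all genes did. With LPS 4 genes were above without overlap, Nfe2l2, Gclc, Srxn1 and Sqstm1, beside 5.91% of all genes, and Keap1 was below, beside 7.82%. With LPS + Dex Nfe2l2, Gclc, Srxn1 and Sod2 were above, beside 8.93%, and none was below, beside 8.83%. Sod2 with LPS + Dex was at 8.44, 9.06 and 8.71 in the WT and 9.06, 9.15 and 9.24 in the NELF-B KO, where mouse C of the WT came close to mouse B of the NELF-B KO.

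By limma 0 of the 10 genes were called for genotype in any condition, beside 0.0104% of all genes untreated, 0.146% with LPS and 0.114% with LPS + Dex. At an unadjusted p under 0.05, 3 of the 10 passed in untreated cells (Nfe2l2, Gclc and Txnrd1), beside 15.2% of all genes. With LPS only Gclc passed, beside 6.92%, and with LPS + Dex Nfe2l2, Gclc and Sod2 passed, beside 7.93%. Without the untreated library of WT mouse B, Gclc (1.20), Txnrd1 (0.53) and Nfe2l2 (0.47) were called in untreated cells, with limma adjusted p-values of 0.000149, 0.0245 and 0.0236, but the library that stands apart was then the only untreated WT library. Without that library (mouse A) the values were 0.58, 0.22 and 0.23, none called (limma adjusted p = 0.98). The neutrophil marker S100a8 was at 5.44 to 20.5 CPM in WT and 13.9 to 36.2 in NELF-B KO cells with LPS, and at 7.81 to 24.2 and 20.6 to 41.5 with LPS + Dex, and its part in these differences was not tested. Stromal markers summed to 64.3 to 110 CPM in WT and 99.6 to 125 in NELF-B KO cells with LPS, and their part was not tested. The range of Cd4 lay lower in the NELF-B KO instead. It was 30.7 to 58.2 CPM in WT and 6.66 to 32.1 in NELF-B KO cells untreated, and 8.74 to 57.8 and 5.75 to 34.6 with LPS. With LPS + Dex it was 7.43 to 59.2 and 5.14 to 37.9. In untreated cells S100a8 was at 5.54 to 27.1 CPM in WT and 11.7 to 18.3 in NELF-B KO. All of these ranges overlapped between the genotypes.

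Of 87 other genes of the pathway, listed by role, 80 were in the table. LPS raised 2 and lowered 2 of them in the WT, and raised 2 and lowered 1 in the NELF-B KO. Their median log2 fold change was -0.19 in the WT and 0.05 in the NELF-B KO. The all-gene medians were 0.016 and -0.0052. The called genes are 5% and 3.75% of the 80, against 6.91% and 4.01% of all genes. None was called for Dex or for genotype without the replicate block. With the block 1 of the 80 was called for Dex in each genotype (1.25%, against 2.19% and 2.57% of all genes). These were Sesn1, higher by 0.44 log2 in the WT (limma adjusted p = 0.014), and Ggct, lower in the NELF-B KO (-1.10, limma adjusted p = 0.00849), named after their values were seen. Each moved the same way in the other genotype without passing. Sesn1 changed by 0.32 in the NELF-B KO (limma adjusted p = 0.0622) and Ggct by -0.65 in the WT (limma adjusted p = 0.118).

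The raised genes were Maff and Mafg, which encode small MAF proteins, the partners NRF2 needs to bind DNA. Maff was at 1.74 ± 0.18 log2 CPM in untreated WT cells (SD, n = 2) and 6.71 ± 0.18 with LPS (SD, n = 3), and at 1.55 ± 0.62 and 6.86 ± 0.21 in the NELF-B KO. The log2 fold change was 4.97 in the WT (standard error 0.23, limma adjusted p = 1.06e-08) and 5.32 in the NELF-B KO (standard error 0.23, limma adjusted p = 4.49e-09). Mafg rose from 6.77 ± 0.14 to 7.36 ± 0.07 in the WT, by 0.60 log2 (standard error 0.10, limma adjusted p = 0.00136), and by 0.57 in the NELF-B KO (standard error 0.10, limma adjusted p = 0.00234).

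The lowered genes came from other groups. Osgin1, an oxidative stress response gene, fell by 1.83 log2 in the WT (standard error 0.23, limma adjusted p = 0.000172), from 5.66 ± 0.23 to 3.82 ± 0.32 log2 CPM, and was at 5.33 ± 0.34 and 4.78 ± 0.20 in the NELF-B KO, where it was not called. Sesn2, a stress-induced sestrin, fell by 0.57 in the WT (standard error 0.15, limma adjusted p = 0.0375). Txnip, which binds and inhibits thioredoxin, fell by 1.76 in the NELF-B KO (standard error 0.42, limma adjusted p = 0.0286), and its untreated WT libraries spread widely, at 5.56 ± 1.39 log2 CPM. By role, without the replicate block, 2 of 10 regulators measured were called higher in each genotype. In that fit none was called higher of 20 glutathione genes or 8 p62 and autophagy genes. The same held for 4 superoxide and peroxide genes, 9 heme and iron genes and 7 NADPH supply genes. With the block 4 of the 80 were higher and 5 lower in the WT, and 4 higher and 3 lower in the NELF-B KO. These are 11.2% and 8.75% of the 80, against 13.8% and 7.32% of all genes. The higher genes with the block were 3 regulators and 1 glutathione gene (Slc7a11) in the WT. In the NELF-B KO they were 2 regulators, 1 glutathione gene (Ggct) and 1 p62 and autophagy gene.

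**Figure D5:**
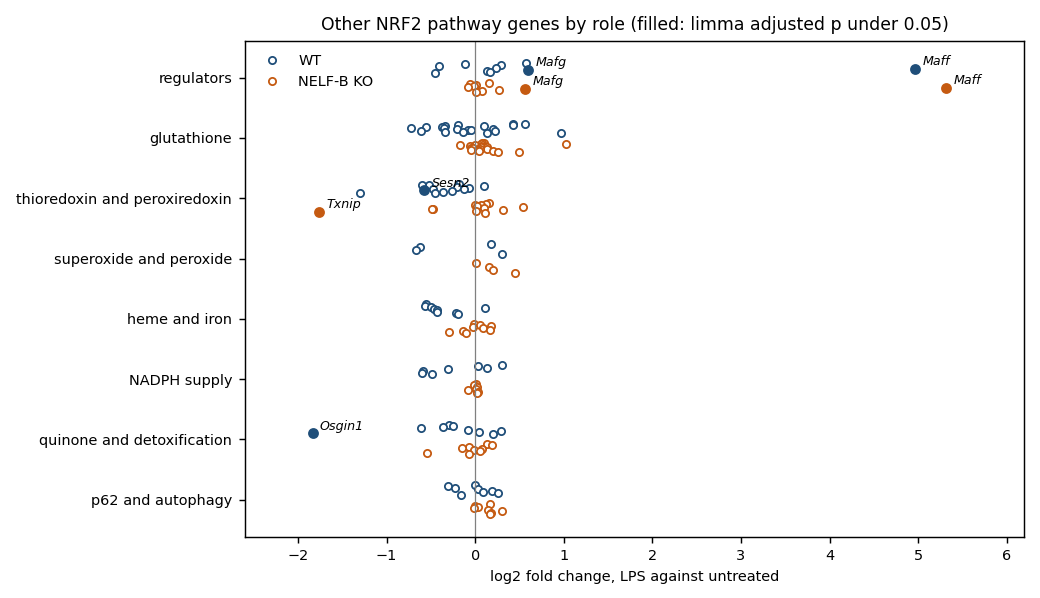
Log2 fold change of LPS-treated against untreated BMDM (horizontal axis) for the 80 other pathway genes measured, grouped by role, in the WT (blue) and NELF-B KO (orange), with filled and named points for genes called by limma. Maff lies apart at 4.97 and 5.32, and the other named genes lie between -1.83 and 0.60.

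Across the 16 libraries the 10 genes did not share a single profile. The closest pair was Nfe2l2 and Txnrd1 (Pearson r = 0.92 of log2 CPM over 16 libraries), followed by Srxn1 and Sqstm1 (0.87), Nfe2l2 and Sod2 (0.86) and Sod2 and Sqstm1 (0.85). These values are descriptions over libraries that share mice and treatments. In the whole table the 3 genes most like Nfe2l2 were Snx18, Plek and Errfi1 (r = 0.97 to 0.98), and those most like Txnrd1 were Malt1, Skil and Zfp131 (0.97). For Sqstm1 they were Gadd45a, Il17ra and Arrdc4 (0.93 to 0.95), and for Sod2 Arrdc4, Hspa1b and Hspa1a (0.94 to 0.95). For Hmox1 they were Prdx6, Adck4 and Mcfd2 (0.87 to 0.89), for Prdx1 Procr, BC028528 and Pir (0.95 to 0.96), and for Gclc Mia3, Sptan1 and Cers6 (0.94 to 0.95). Srxn1 was most like Slc16a3, Fam20c and Ube2a (0.89 to 0.91), Gclm like Nfatc2ip, Colec12 and Ubxn4 (0.86 to 0.88) and Keap1, with the loosest match, like Zfp101, Rcan3 and Zfp28 (0.78 to 0.83).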

How the data were processed

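Per the labels and the paper's methods, polyA RNA was sequenced in paired ends, mapped to mm10 with CLC Bio Genomic Workbench and counted over exons, and the authors deposited log2 CPM scaled in edgeR. CASAVA 1.8 and FastQC are named in the submitters' processing notes. Deposited p-value and FDR columns of the authors' own comparisons were not used. From steps between low values, whole reads came out for 100% of values under 3 CPM in every library, which gave 25030445 to 49728796 reads per library. Floors of 3 reads cover counting error only.

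The log2 values of all 9614 genes in 16 libraries were fitted in limma 3.58.1 (R 4.3.3) with a mean for each genotype and treatment and a variance trend, without a pseudocount or further filter. A gene was called at an adjusted p under 0.05, with no fold threshold. The fit without the block was tested on simulated data in which libraries varied independently. That setting leaves out the likeness of libraries from the same mouse given below, and the fit with the block was not simulated. The members and lists were chosen with earlier results of these data known. The text names the 10 members, up to 5 called genes of the pathway list per comparison, the 3 genes most like each member, and the targeted gene. Replicates were separate mice. Deviations from the group means were alike in libraries of 1 mouse (r over genes 0.781 to 0.939 for LPS and LPS + Dex, 0.186 to 0.822 for untreated and LPS), with the pairing taken from the mouse numbers in the labels. Alternatives were the replicate block, a block on the presumed batch pairs, only the libraries compared, other thresholds, a filter on mean log2 CPM above 1, log2(CPM + 1), centring, no trend, voom on recovered reads and leaving out each library. Averages over genotypes and counts by mouse were added after seeing the data. Gene positions, exon lengths and overlaps are from GENCODE vM21 (GRCm38, the assembly named mm10), and figures were drawn with matplotlib 3.10.9 under Python 3.11.15.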

Additional observations from a re-analysis of the deposited data

Results flagged for a closer look

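The LPS change of Gclm, the modifier subunit of glutamate-cysteine ligase, went up in both WT mice with an untreated library (by 0.02 and 0.47 log2 in mice B and A) and down in both NELF-B KO mice (-0.14 and -0.09 in mice B and A). The value of 0.47 was measured from the untreated library of WT mouse A that stands apart. The difference between the genotypes, NELF-B KO minus WT, was -0.42 (standard error 0.22) and did not pass in limma (adjusted p = 0.69). It was -0.31 without the untreated library of WT mouse A and -0.52 without that of WT mouse B.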

How the results depend on the processing

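For LPS in the WT, 3 of the 10 genes were called, 0 with only the libraries compared, and 2 to 5 when each library was left out in turn. For LPS in the NELF-B KO, 3 were called and 0 to 2 with a library left out. For Dex, 0 were called in either genotype and 0 with any library left out. With the replicate block 1 was called in each, and in the NELF-B KO 1 was also called with only the libraries compared and at an unadjusted p under 0.01 with over 1.5-fold. For NELF-B KO against WT in untreated cells, 0 were called, 1 at an unadjusted p under 0.05 with over 1.5-fold, and 0 to 3 with a library left out. The difference in the LPS change gave 0 to 1. The averaged fits called 5 genes for LPS and 1 for Dex. The cause was not tested. The replicate block changed no call of the 10 genes other than those given for Sqstm1 and Txnrd1. Under settings other than leaving out a library, 798 single-gene values kept their side of the threshold, 9 newly passed and 3 no longer passed. No value called in either fit changed direction. Changes of direction among values not called were not counted, as for Prdx1 with LPS in the WT (0.09, and -0.07 with the replicate block). With a library left out, 585 kept their side of the threshold, 7 newly passed and 8 no longer passed. A lone untreated library was assumed to vary like the other groups. With 2 untreated libraries per genotype, these changes rest on few mice.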
